A study of Mus musculus with 11 samples.

Results

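The prostaglandin and leukotriene genes described here are 10 genes, Pla2g4a, Ptgs1, Ptgs2, Ptges, Ptges2, Ptges3, Ptger2, Ptger4, Alox5 and Alox5ap. Their rows were taken by gene symbol, and all 10 were found among the 36529 genes counted in each sample. Read counts were available for 11 samples of BV2 cells, an immortalized microglial line of the mouse that the labels assign to C57BL/6. In the first experiment, 3 samples had been treated with nApoE4, an amino-terminal fragment of human apolipoprotein E4 holding residues 1 to 151, at 25 μg/ml for 5 h, and 3 untreated samples, called ControlA, served as their controls. In the second experiment, 2 samples had been treated with nApoE3, the same stretch of apolipoprotein E3, at the same dose and for the same time, and 3 untreated samples formed ControlB. The fragments carried a histidine tag and differ by a single residue. The labels name a PBS vehicle and the study's methods name conditioned media for the untreated cells, so what the controls received is not settled by these sources. Each fragment was run in its own experiment, so fragment and experiment cannot be told apart. BV2 is 1 cell line in culture. The study's methods call its measurements independent, but neither they nor the labels say that replicates were separate cultures, so p-values measure only the spread between these samples. In such bulk RNA, fewer cells with a transcript and less transcript per cell cannot be told apart.

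Eicosanoids are lipid mediators made on demand from arachidonic acid. Cytosolic phospholipase A2, the product of Pla2g4a, frees arachidonic acid from membrane phospholipids. The cyclooxygenases encoded by Ptgs1 and Ptgs2 turn it into prostaglandin H2, and the prostaglandin E synthases encoded by Ptges, Ptges2 and Ptges3 turn that into prostaglandin E2, which cells sense through receptors such as EP2 (Ptger2) and EP4 (Ptger4). In the other branch, 5-lipoxygenase (Alox5), helped by its activating protein FLAP (Alox5ap), starts the synthesis of leukotrienes. Ptgs1 is known as the constitutive cyclooxygenase of microglia, and Ptgs2 and Ptges as the forms that inflammatory stimuli induce in macrophages and microglia.

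The promoter windows of Ptgs2, Ptges and Ptgs1 are shown because these 3 genes changed by more than 2-fold with both fragments, the first pair upward and Ptgs1 downward. Each window is a RefSeq sequence of GRCm38.p6 that runs from 250 bases before an annotated start to 50 bases from it on, printed 5′ to 3′ on the gene's own strand. Capitals mark matches to any of the motifs searched. The windows lie at chr1:150099781-150100080 on the plus strand for Ptgs2, chr2:30903248-30903547 on the minus strand for Ptges and chr2:36230176-36230475 on the plus strand for Ptgs1. For Ptges and Ptgs1 the annotated start lies inside the span of the gene, which has other starts.
Ptgs2: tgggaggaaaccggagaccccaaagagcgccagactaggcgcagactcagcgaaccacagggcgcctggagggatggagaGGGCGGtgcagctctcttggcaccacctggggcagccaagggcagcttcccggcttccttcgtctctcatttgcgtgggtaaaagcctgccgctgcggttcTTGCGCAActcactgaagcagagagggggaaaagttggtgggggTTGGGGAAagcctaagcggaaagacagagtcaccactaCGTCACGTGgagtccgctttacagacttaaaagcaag
Ptges: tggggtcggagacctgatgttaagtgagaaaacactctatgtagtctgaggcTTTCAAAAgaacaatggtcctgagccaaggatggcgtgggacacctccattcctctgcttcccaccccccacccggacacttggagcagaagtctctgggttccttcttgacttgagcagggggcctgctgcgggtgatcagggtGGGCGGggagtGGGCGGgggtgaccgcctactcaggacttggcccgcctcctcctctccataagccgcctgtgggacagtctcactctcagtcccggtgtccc
Ptgs1: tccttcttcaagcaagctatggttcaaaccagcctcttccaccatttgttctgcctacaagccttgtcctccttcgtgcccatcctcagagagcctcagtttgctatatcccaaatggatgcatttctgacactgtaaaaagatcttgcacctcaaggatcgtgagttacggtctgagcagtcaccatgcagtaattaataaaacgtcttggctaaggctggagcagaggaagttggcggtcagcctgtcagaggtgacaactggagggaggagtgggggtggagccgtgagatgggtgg

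The Ptgs2 window held 2 matches to the C/EBP letters TTNNGNAA, at 69 to 62 and at 25 to 18 bases before the start. It also held the GC box GGGCGG and, at bases 17 to 22 from the annotated start on, the E-box CACGTG. The E-box overlapped a match to the short CRE motif TGACG on the opposite strand. All positions count from the annotated start, and where transcription begins in these cells was not measured. The Ptges window held 2 GC boxes between 53 and 37 bases before the start, and 1 C/EBP match on the opposite strand. The Ptgs1 window held none of the motifs searched, a statement about these letters in this window only. Of all 32851 windows in the table, read on both strands, 40.7% held the C/EBP letters, 35.7% the GC box, 20.8% the short CRE motif and 7.15% the E-box. The shares were 13.6% for TATAAA, 1.79% for the whole CRE TGACGTCA, 7.81% for the AP-1 letters TGANTCA, 8.3% for the GAS letters TTCNNNGAA, 3.44% for the ISRE core and 4.51% for the kappaB motif, none of which was in the 3 windows printed. Pla2g4a and Ptges3, whose changes were smaller, are not printed. One Pla2g4a window held overlapping C/EBP matches and the other TATAAA on the opposite strand, and the Ptges3 window held 4 GC boxes and the short CRE motif. These are matches of letters, not sites shown to be bound.

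The samples held 39732710 to 44162511 gene counts each in the nApoE4 experiment and 55809688 to 69768666 in the nApoE3 experiment. Levels are given as CPM, counts scaled to library size with TMM factors over the 11 samples, and 3 counts, taken as the floor, correspond to 0.0425 to 0.0756 CPM by counting error alone. The microglial label was checked with 15 markers. Of these, 9 were above 1 CPM in every sample, among them Csf1r, Cd68 and Tyrobp. P2ry12 had 0 counts in all samples, Sall1 at most 2 and Aif1 at most 10. Cx3cr1 stayed at 0.739 CPM or less, while Trem2 ranged from 0.372 to 60.5 CPM and Fcrls from 0.429 to 1.78 CPM. The summed microglial level was 3590 to 3980 CPM in ControlA, 3840 to 3930 in nApoE4, 2530 to 2650 in ControlB and 3010 to 3030 in nApoE3. Among markers of other cells, the endothelial sum was 150 to 177 CPM in ControlA, 62.5 to 71.7 in nApoE4, 64 to 66.3 in ControlB and 42.8 to 47.9 in nApoE3. Nearly all of it was Kdr, and Cldn5 had 0 counts throughout. The astrocyte sum was 1.36 to 1.92 CPM in the controls and 5.88 to 7.89 with the fragments, with Gfap at no more than 4 counts. The neuron sum was 1.97 to 2.51 CPM in ControlA, 5.32 to 6.39 in nApoE4, 1.15 to 1.52 in ControlB and 1.5 to 1.51 in nApoE3, most of it Tubb3. Oligodendrocyte markers summed to 9.28 to 14.3 CPM in the nApoE4 experiment and 22.1 to 25.4 in the nApoE3 experiment, with Mog at 0, and fibroblast and mast cell markers to no more than 0.404. The part of these markers in the results was not tested.

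Of the 10 genes, 8 had enough counts to be tested, and Ptger2 and Alox5 did not. With nApoE4, 6 of the 8 passed an adjusted p under 0.05 in edgeR's quasi-likelihood test, against 57.2% of the 14240 genes tested. Pla2g4a, Ptgs2, Ptges and Ptges3 rose, against 28.6% of all genes, and Ptgs1 and Alox5ap fell, against 28.6%. A called change of more than 2-fold was seen for 4 of the genes, Ptgs2, Ptges, Ptgs1 and Pla2g4a, against 17.7% of all genes. With nApoE3, 7 of the 8 passed, against 67.7% of 14817 genes, with 5 higher against 33.1% and 2 lower against 34.6%. The additional gene was Ptger4, which rose, and 3 genes, Ptgs2, Ptges and Ptgs1, were past 2-fold, against 16.2%. With so many genes called, the number says little about these genes, and the size of each change is what the following values show. The median log2 fold change of the tested members was 0.215 with nApoE4 and 0.295 with nApoE3, beside 0.00128 and -0.00261 over all genes tested.

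**Figure D1:**
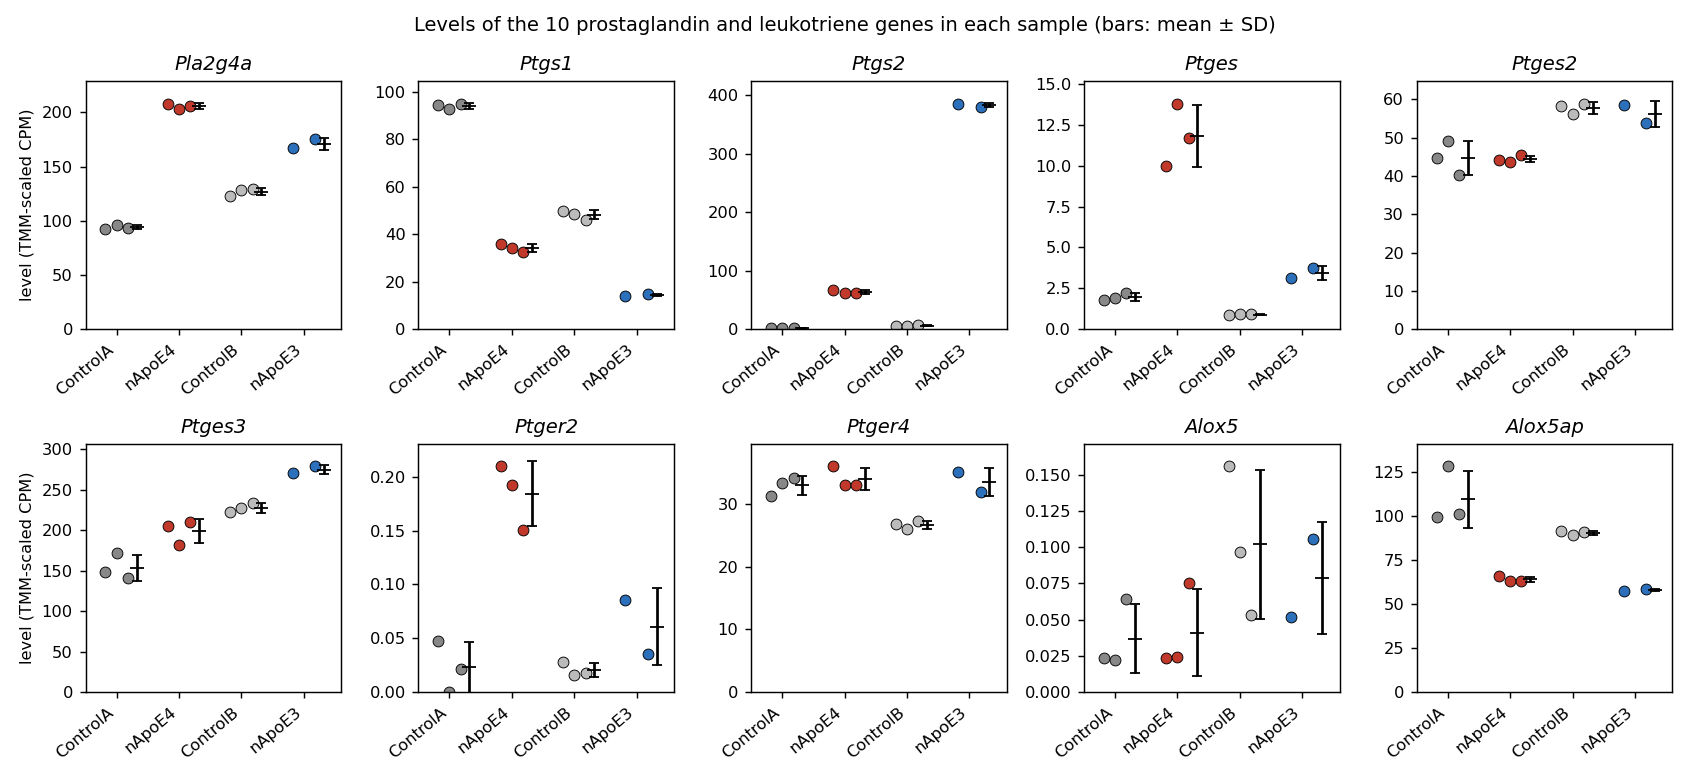
Level of each of the 10 genes (vertical axes, TMM-scaled CPM, linear and from 0) in every sample of the 4 groups, with points for samples and bars for mean ± SD (cut at 0 for Ptger2). Ptgs2 reached 381 to 386 CPM with nApoE3, Ptgs1 and Alox5ap lay lower in treated than in control samples, and the levels of Ptger2 and Alox5 came from 11 counts or fewer per sample.

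Pla2g4a, on chromosome 1 (149829618 to 149961290, minus strand), rose with both fragments and more with nApoE4. Its level was 92.7, 96.4 and 93.5 CPM in ControlA and 208, 203 and 206 CPM in nApoE4. In the other experiment it was 123, 128 and 129 CPM in ControlB and 167 and 175 CPM in nApoE3. Every treated sample was above every control sample of its experiment, and the samples of a group lay close together. The log2 fold change was 1.13 ± 0.0539 (SE) with nApoE4 (2.19-fold, edgeR adjusted p = 1.07e-07) and 0.43 ± 0.0294 with nApoE3 (1.34-fold, edgeR adjusted p = 5.97e-08). The gene starts 139 kilobases from the start of Ptgs2, on the opposite strand, its neighbour among the genes described here.

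The cyclooxygenase genes moved in opposite directions with both fragments. Ptgs2, the inducible form, on chromosome 1 (150100031 to 150108234, plus strand), was at 2.65, 1.9 and 2.55 CPM in ControlA and at 67.4, 61.4 and 61.7 CPM in nApoE4. It was at 6.01, 5.51 and 6.46 CPM in ControlB and at 386 and 381 CPM in nApoE3. The groups did not overlap in either experiment. The rise was 26.9-fold with nApoE4 (log2 4.75 ± 0.111, edgeR adjusted p = 1.23e-09) and 63.9-fold with nApoE3 (log2 6.00 ± 0.0394, edgeR adjusted p = 1.93e-16). By the size of its change it stood 109th among the 14240 genes tested with nApoE4 and 44th among the 14817 tested with nApoE3.

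Ptgs1, the constitutive form, on chromosome 2 (36216742 to 36258593, plus strand), was at 94.6, 92.8 and 95.1 CPM in ControlA and at 36.1, 34.1 and 32.5 CPM in nApoE4. It was at 50, 48.7 and 46.2 CPM in ControlB and at 14.1 and 14.9 CPM in nApoE3. All treated samples were below all controls of their experiment. The fall was 2.74-fold with nApoE4 (log2 -1.46 ± 0.0594, edgeR adjusted p = 3.83e-08) and 3.34-fold with nApoE3 (log2 -1.74 ± 0.0475, edgeR adjusted p = 9.28e-12).

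Per length of transcript, the balance between both cyclooxygenase genes changed from mostly Ptgs1 to mostly Ptgs2. In CPM per kilobase of exon, Ptgs2 made up 2.32, 1.7 and 2.22% of the summed level of both genes in ControlA and 61.3, 60.5 and 61.7% in nApoE4. The share was 9.25, 8.76 and 10.6% in ControlB and 95.9 and 95.6% in nApoE3. No treated sample came near a control sample. The summed level itself was 24.3 to 25.0 CPM per kilobase in ControlA and 21.8 to 24.0 in nApoE4, with all exonic bases as length, but with the longest annotated transcript it was 32.8 to 33.7 and 25.2 to 27.7. In the other experiment it was 13.3 to 14.2 in ControlB and 87.1 to 88.0 in nApoE3. With the longest transcript as length, the mean share in nApoE4 was 54.5% instead of 61.2%.

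**Figure D2:**
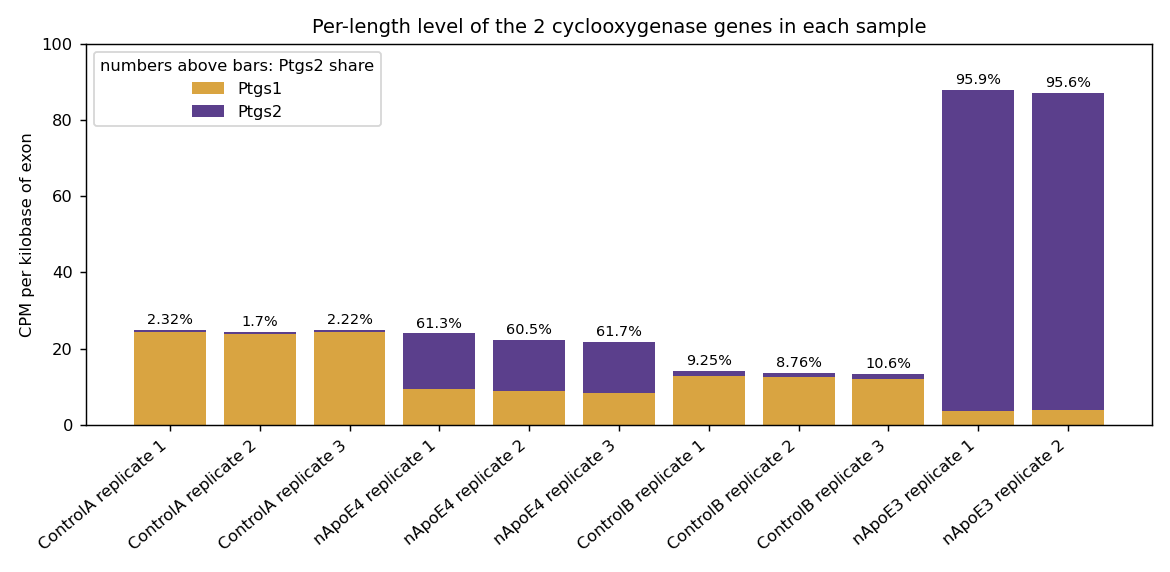
Summed level of Ptgs1 (lower part of each bar) and Ptgs2 (upper part) in CPM per kilobase of exon, for each of the 11 samples, with the Ptgs2 share in percent above each bar. The share was 10.6% or less in every control sample and 60.5% or more in every treated sample, and the bars of nApoE3 were the tallest, at 87.1 and 88.0.

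Ptgs2 lies between annotated long noncoding transcripts on the opposite strand. Ptgs2os, which starts 156 bases before the RefSeq start of Ptgs2 and runs away from it, had 0 counts in each ControlA sample, 11, 7 and 2 counts in nApoE4, 5, 2 and 6 in ControlB and 19 and 15 in nApoE3. It had enough counts to be tested against controls only with nApoE3, where it rose by 2.06 ± 0.484 on the log2 scale (edgeR adjusted p = 0.00234), and its difference of response did not pass (edgeR adjusted p = 0.0938). Ptgs2os2, which ends 50.8 kilobases beyond the end of Ptgs2, was at 4.04, 4.35 and 4.09 CPM in ControlA and at 19.7, 20.7 and 21.8 CPM in nApoE4. In ControlB it was at 6.19, 5.88 and 6.6 CPM and in nApoE3 at 36.7 and 40.1 CPM. It rose by 2.32 ± 0.0826 with nApoE4 (edgeR adjusted p = 1.51e-08) and by 2.62 ± 0.0573 with nApoE3 (edgeR adjusted p = 1.24e-12) on the log2 scale. Whether the counting used the strand of reads is not given in the sources used here, so reads of these transcripts and of the strand opposite to them cannot be told apart.

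The genes whose log2 CPM followed that of Ptgs2 most closely over the 11 samples, among 13493 genes tested in every comparison, were Batf2 (Pearson r = 0.998), Rsad2, Cmpk2, Ezr and Sppl2a (0.9956 for the last). The 11 points come from 4 groups of 2 experiments, which they share with every gene. Rsad2 rose by 6.75 with nApoE4 and by 7.29 with nApoE3 on the log2 scale, and Sppl2a by 0.82 and 0.95. By rank correlation, Batf2 was the only one of these 5 genes again among the first 5.

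Among the prostaglandin E synthases, Ptges rose severalfold, Ptges3 rose slightly and Ptges2 did not pass the test with either fragment. Ptges, the inducible microsomal enzyme, on chromosome 2 (30889471 to 30931020, minus strand), was at 1.76, 1.9 and 2.23 CPM in ControlA and at 9.96, 13.8 and 11.7 CPM in nApoE4. It was at 0.892, 0.905 and 0.905 CPM in ControlB and at 3.16 and 3.76 CPM in nApoE3. The groups of each experiment did not overlap, although the gene stayed at a low level. The log2 fold change was 2.59 ± 0.15 with nApoE4 (6.02-fold, edgeR adjusted p = 4.06e-07) and 1.93 ± 0.152 with nApoE3 (3.82-fold, edgeR adjusted p = 2.07e-07).

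Ptges3, a cytosolic prostaglandin E synthase also known as the co-chaperone p23, on chromosome 10 (128058982 to 128077254, plus strand), was at 148, 172 and 141 CPM in ControlA and at 205, 182 and 210 CPM in nApoE4. It was at 222, 227 and 234 CPM in ControlB and at 271 and 279 CPM in nApoE3. The groups did not overlap, but ControlA replicate 2 and nApoE4 replicate 2 lay near each other. The log2 fold change was 0.38 ± 0.0865 with nApoE4 (edgeR adjusted p = 0.00425) and 0.26 ± 0.0265 with nApoE3 (edgeR adjusted p = 1.99e-06). Its paralogue Ptges3l fell by 0.85 and by 0.70 on the log2 scale (edgeR adjusted p = 0.000189 and 6.99e-05). How reads that align to several places were treated is not given in the sources used here. This leaves the level of Ptges3 uncertain to that extent.

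Ptges2, a membrane-associated enzyme of the same name, on chromosome 2 (32395890 to 32402740, plus strand), was at 44.8, 49.1 and 40.3 CPM in ControlA and at 44.2, 43.7 and 45.4 CPM in nApoE4. It was at 58.4, 56.1 and 58.9 CPM in ControlB and at 58.5 and 53.8 CPM in nApoE3. Treated and control samples overlapped in both experiments. The 95% interval of the log2 fold change was -0.17 to 0.16 with nApoE4 (edgeR adjusted p = 0.969) and -0.13 to 0.038 with nApoE3 (edgeR adjusted p = 0.296). Without nApoE3 replicate 1 the fall with nApoE3 passed the test, at -0.11 with an edgeR adjusted p of 0.0454.

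**Figure D3:**
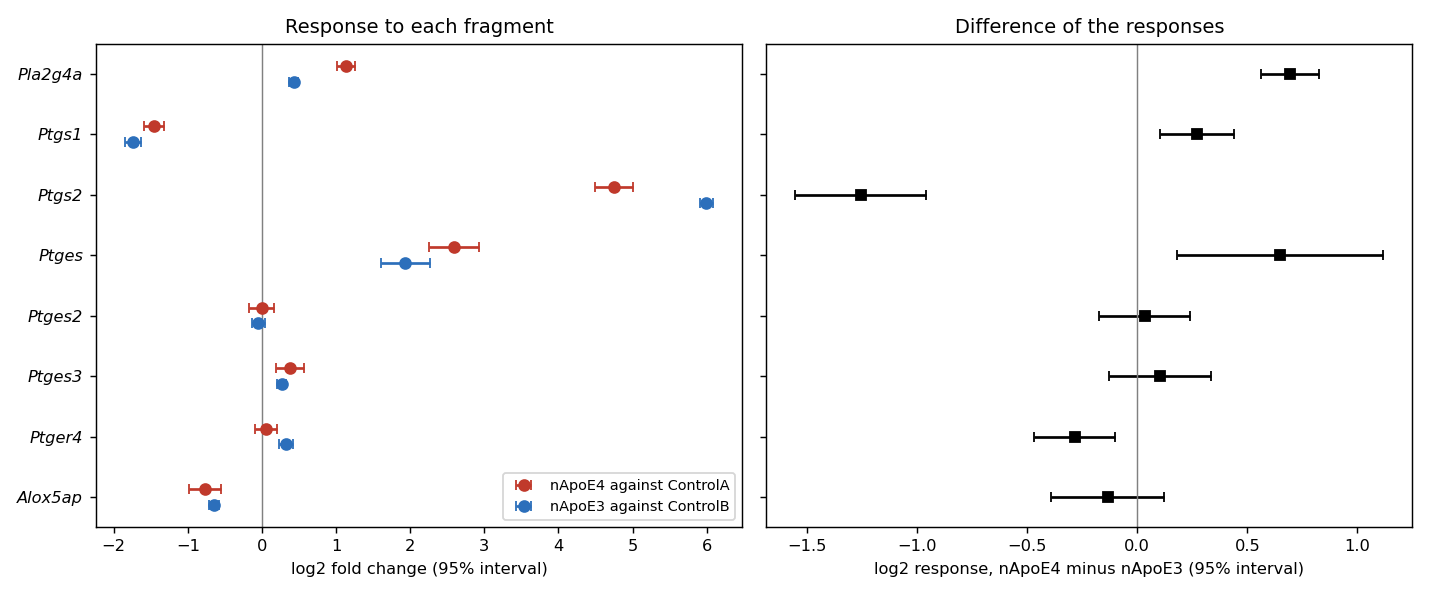
Left, log2 fold change of the 8 tested genes with nApoE4 and with nApoE3, each against its own controls. Right, the difference of both responses, with 95% intervals as lines throughout. Ptgs2 lies farthest from 0 on the left, at 4.75 and 6.00, and on the right the intervals of Ptges2, Ptges3 and Alox5ap include 0.

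Of the receptor genes for prostaglandin E2, that of EP4 was the one with transcript at an appreciable level. Ptger4, on chromosome 15 (5233399 to 5244187, minus strand), was at 31.3, 33.5 and 34.3 CPM in ControlA and at 36.1, 33.1 and 33.1 CPM in nApoE4, and these groups overlapped. It was at 26.8, 26 and 27.3 CPM in ControlB and at 35.2 and 32 CPM in nApoE3, where they did not. The log2 fold change was 0.05 ± 0.0645 with nApoE4 (edgeR adjusted p = 0.521) and 0.33 ± 0.0456 with nApoE3 (1.25-fold, edgeR adjusted p = 4.19e-05).

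Ptger2, the EP2 gene, on chromosome 14 (44988111 to 45003820, plus strand), had 2, 0 and 1 counts in ControlA, 9, 8 and 6 in nApoE4, 2, 1 and 1 in ControlB and 5 and 2 in nApoE3. Each nApoE4 sample was above each ControlA sample, and the lower nApoE3 sample reached the count of the highest ControlB sample. Scaled to depth, the 23 counts of nApoE4 against the 3 of ControlA gave a ratio of 8.28, with a 95% counting interval of 2.5 to 43.1. The ratio was 2.88 with nApoE3, with an interval of 0.733 to 13.4. These intervals cover counting error only. With every gene of at least 1 count kept in the test, the edgeR adjusted p was 0.0045 with nApoE4 and 0.352 with nApoE3. Ptger1 had 0 counts in every sample, and Ptger3 had 7 to 21 counts and did not pass the test with either fragment (edgeR adjusted p = 0.0958 and 0.759).

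In the leukotriene branch, the transcript of the activating protein was abundant and fell, while that of the enzyme it serves was barely counted. Alox5ap, on chromosome 5 (149265004 to 149288153, plus strand), was at 99.1, 128 and 101 CPM in ControlA and at 65.7, 62.7 and 63 CPM in nApoE4. It was at 91.2, 88.9 and 90.5 CPM in ControlB and at 57.4 and 58.2 CPM in nApoE3. All treated samples were below all controls, and ControlA replicate 2 stood above the other samples of its group. The fall was 1.71-fold with nApoE4 (log2 -0.77 ± 0.0953, edgeR adjusted p = 8.73e-05) and 1.57-fold with nApoE3 (log2 -0.65 ± 0.0288, edgeR adjusted p = 8.93e-10). Alox5, on chromosome 6 (116410071 to 116461178, minus strand), had 1, 1 and 3 counts in ControlA and 1, 1 and 3 in nApoE4, all at or under the floor. It had 11, 6 and 3 counts in ControlB and 3 and 6 in nApoE3, a depth-scaled ratio of 0.741 with a counting interval of 0.297 to 1.7. With nApoE4 the ratio was 1.08, with a counting interval of 0.249 to 4.69. Within these intervals, which cover counting error only, a change of Alox5 could not be told from none at this depth. Gm38880, annotated within its span, had 0 counts in every sample.

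Per kilobase of exon, Alox5ap and Ptges3 were the highest of the 10 genes in ControlA, at 77.0 ± 11.5 and 69.4 ± 7.26 CPM per kilobase (SD, n = 3), and their samples overlapped. Ptgs1 (24.2), Pla2g4a (14.7), Ptges2 (8.84) and Ptger4 (4.96) followed, then Ptgs2 (0.517) and Ptges (0.499), whose samples overlapped. In nApoE4 the order was Ptges3 (89.8), Alox5ap (44.9), Pla2g4a (32.2), Ptgs2 (13.9), Ptgs1 (8.81), Ptges2 (8.79), Ptger4 (5.13) and Ptges (3.0), and the samples of Ptgs1 and Ptges2 overlapped. In nApoE3 Ptgs2, at 83.8 ± 0.8 (SD, n = 2), came after Ptges3, at 124.0 ± 2.3, and before Alox5ap, at 40.7 ± 0.353, and Ptgs1 was at 3.74, below Ptger4 at 5.05. In ControlB Ptgs1 had been at 12.4, after Ptges3, Alox5ap and Pla2g4a, and Ptgs2 at 1.31. Ptger2 and Alox5 averaged 0.0355 CPM per kilobase or less in all groups. The level of Pla2g4a depends on the length used, and with the longest transcript it stood above Alox5ap in nApoE4 and in nApoE3.

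The responses to the fragments were compared by a test of their difference over all 11 samples, nApoE4 minus nApoE3. Of the 8 tested genes, 5 passed, against 28.3% of 15287 genes. The response was higher with nApoE4 for Pla2g4a, Ptges and Ptgs1, against 14.4% of all genes, and lower for Ptgs2 and Ptger4, against 13.9%. Ptgs2 differed by -1.26 ± 0.136 on the log2 scale (edgeR adjusted p = 2.09e-05), so its rise was 2.39-fold smaller with nApoE4. Pla2g4a differed by 0.69 ± 0.0611 (edgeR adjusted p = 3.43e-06), with a rise 1.62-fold larger with nApoE4. Both calls held under every alternative run. For Ptges the difference was 0.65 ± 0.216 (edgeR adjusted p = 0.0402), and for Ptgs1, which fell less with nApoE4, it was 0.27 ± 0.0773 (edgeR adjusted p = 0.0184). For Ptger4 it was -0.28 ± 0.0842 (edgeR adjusted p = 0.0227). These 3 calls were lost under some of the 16 alternatives, 8 for Ptges, 6 for Ptger4 and 3 for Ptgs1, and leaving out nApoE3 replicate 1 alone ended all of them, with edgeR adjusted p-values of 0.157, 0.148 and 0.112. The call for Ptges was also lost without ControlA replicate 1, nApoE4 replicate 2 or 3, or any ControlB replicate (edgeR adjusted p = 0.0653 to 0.0895). That for Ptger4 was lost without nApoE4 replicate 2 or 3 or ControlB replicate 2 (0.0553 to 0.0615), and that for Ptgs1 without ControlB replicate 1 (0.0522). The 95% interval of the difference was -0.39 to 0.12 for Alox5ap, -0.13 to 0.33 for Ptges3 and -0.17 to 0.24 for Ptges2, none of which passed the test.

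The untreated cells of both experiments differed in all 8 genes, against 69.3% of the 14249 genes tested. ControlB was higher than ControlA in Ptgs2 (log2 1.32), Ptges3 (0.55), Pla2g4a (0.41) and Ptges2 (0.35), against 34.4% of all genes. It was lower in Ptges (-1.14), Ptgs1 (-0.98), Ptger4 (-0.32) and Alox5ap (-0.29), against 34.9%. Adjusted p-values in edgeR ran from 1.15e-06 for Ptgs1 to 0.0215 for Alox5ap, whose call was lost when any of the ControlB replicates was left out (edgeR adjusted p = 0.0628 to 0.0744). Without ControlA replicate 2 the Alox5ap value was -0.16 (edgeR adjusted p = 0.000649). Ptgs2 was thus 2.5-fold higher in the untreated cells of the nApoE3 experiment, where its rise was also 2.39-fold larger. Its level in the treated samples was 63.5 ± 3.4 CPM (SD, n = 3) in nApoE4 and 384 ± 3.66 CPM (SD, n = 2) in nApoE3. Ptgs1 was lower in ControlB than in ControlA and lower again in nApoE3, at 14.5 ± 0.605 CPM, than in nApoE4, at 34.2 ± 1.82 CPM.

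The rest of the eicosanoid pathway was followed in 85 other genes. With nApoE4, 50 of them could be tested, of which 15 rose and 20 fell, against 28.6% and 28.6% of all genes tested. With nApoE3, 51 could be tested, of which 18 rose and 22 fell, against 33.1% and 34.6%. Their median log2 fold change was -0.152 and -0.0985, beside 0.00128 and -0.00261 over all genes tested. Among genes that release or recapture arachidonic acid, Daglb, a diacylglycerol lipase, fell by 1.74 with nApoE4 and by 1.23 with nApoE3 on the log2 scale, and Faah, which breaks down anandamide, fell by 1.60 and by 0.94. Pla2g4f, a relative of Pla2g4a, fell by 0.91 and by 1.56 from a level near 1 CPM. Not all genes of release fell. Of the 16 tested, Pla2g4a among them, 5 rose and 8 fell with each fragment, beside the shares of all genes given above. Lpcat2, an acyltransferase that returns fatty acids to lysophospholipids, rose by 2.36 and by 1.52, Acsl1, an acyl-CoA synthetase, rose by 1.60 and by 1.58, and Lpcat1 fell by 0.92 and by 0.59.

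Among the other prostanoid synthases, Hpgds, which makes prostaglandin D2, fell by 0.96 with nApoE4 and by 0.45 with nApoE3 on the log2 scale. Tbxas1, thromboxane synthase, rose by 0.96 with nApoE3 and had a log2 fold change of -0.08 with nApoE4 (edgeR adjusted p = 0.595), a difference of -1.06 ± 0.163 (edgeR adjusted p = 0.000364). Cbr1, a carbonyl reductase, fell by 0.29 and by 0.54. Of the genes for breakdown and transport, Ptgr2 fell by 0.33 and by 0.69, and Abcc4, an exporter of prostaglandins, rose by 0.42 and by 0.52. Ptgr1 rose by 0.54 with nApoE3 and had a value of 0.05 with nApoE4 (edgeR adjusted p = 0.623). Ptgir, the prostacyclin receptor and, beside Ptger4, the other prostanoid receptor above 1 CPM, rose by 0.93 and by 0.98, from 34.0 to 64.7 CPM and from 27.2 to 53.7 CPM. Ptgfr, the prostaglandin F receptor, rose by 2.65 with nApoE4 (edgeR adjusted p = 0.000717) from 1 to 4 counts to 14 to 19 counts, and had 0 to 3 counts in the other experiment. Ptgdr had 0 counts in every sample, and Ptgdr2 and Tbxa2r had at most 16 and were not tested.

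In the leukotriene branch, 5 genes of synthesis could be tested with each fragment, Alox5ap among them. None rose, against 28.6% of all genes with nApoE4 and 33.1% with nApoE3. With nApoE4 3 of them fell, against 28.6% of all genes, and with nApoE3 4 fell, against 34.6%. Mgst3 passed the test with neither, at a log2 fold change of -0.015 with nApoE4 and -0.098 with nApoE3 (edgeR adjusted p = 0.924 and 0.283). Mgst2 fell by 0.60 with nApoE4 and by 0.56 with nApoE3 on the log2 scale, and Lta4h, the hydrolase that makes leukotriene B4, fell by 0.24 and by 0.30. Ltc4s, leukotriene C4 synthase, fell by 0.88 with nApoE3 and had a value of -0.14 with nApoE4 (edgeR adjusted p = 0.632), at 1.21 to 2.23 CPM on average. Abcc1, an exporter of leukotriene C4, rose by 0.91 and by 1.27. Cyp4f18, of a family that inactivates leukotriene B4, fell by 1.26 and by 0.94, and Dpep3 rose by 1.35 with nApoE4 and was not tested with nApoE3. Of the leukotriene receptors, Cysltr1 fell by 1.06 with nApoE4, from 24.6 to 11.8 CPM, and had a log2 fold change of 0.11 with nApoE3 (13.2 and 14.3 CPM, edgeR adjusted p = 0.113). Its responses differed by -1.18 ± 0.103 (edgeR adjusted p = 3.26e-06). Ltb4r2 rose by 1.16 with nApoE3 (edgeR adjusted p = 0.00864), from 12 to 20 counts to 25 to 38 counts, and Ltb4r1, Cysltr2 and Oxgr1 stayed at 11 counts or fewer, with Gpr17 at 0.

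**Figure D4:**
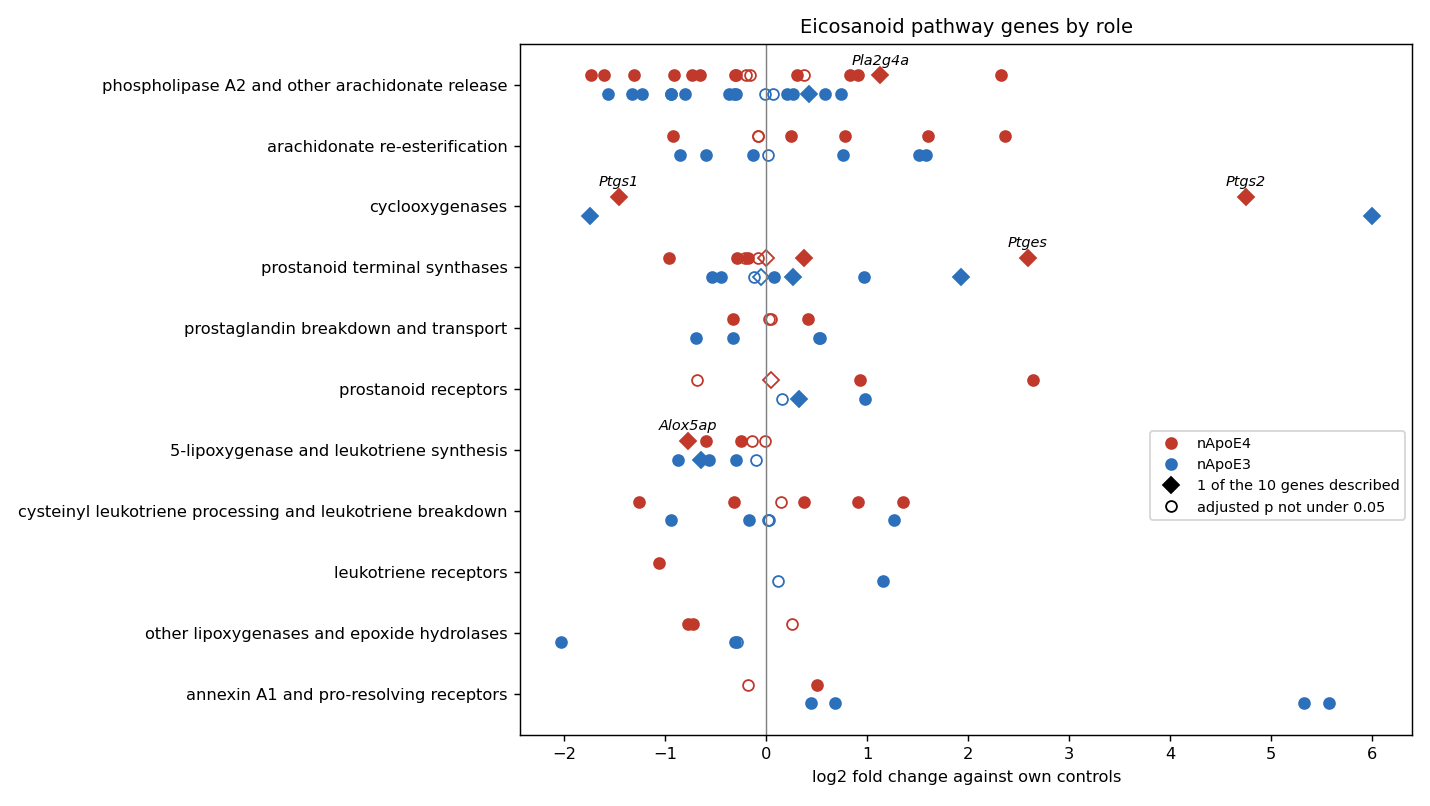
Log2 fold change against own controls (horizontal axis) of every tested gene of the eicosanoid pathway list, by role, with nApoE4 above and nApoE3 below in each row, diamonds for the genes described here and open symbols for genes that did not pass the test. The widest spread within a role with nApoE4 is that of the cyclooxygenases, from -1.46 to 4.75. The points past 5 in the lowest row are Fpr1 and Fpr2, whose mean levels in ControlB were 0.00944 and 0.0101 CPM, so that their values depend on the constant edgeR adds to counts.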

How the data were processed

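RNA of 11 BV2 samples was sequenced. The authors trimmed reads with Trim Galore 0.5.0, checked them with FastQC 0.11.8, aligned them to GRCm38.p6 with HISAT2 2.1.0 and deposited raw counts per gene from HTSeq 0.11.0, 1 file per sample, with no normalization. The annotation release, strand setting and overlap mode are not given in the sources used here. The counting method decides how reads of overlapping or near-identical genes are treated. Tallied apart from the genes were reads aligned to several places, 11.7 to 13.2% per sample, and ambiguous reads, 3.24 to 3.56%.

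Groups came from the sample labels. Rows that tally uncounted reads were left out. Counts were analysed in R 4.3.3 with edgeR 4.0.16 (filterByExpr, TMM, quasi-likelihood F test, Benjamini-Hochberg over all genes tested, adjusted p under 0.05). Each fragment was fitted with its own controls, the difference of the responses over 11 samples with 4 group means, and ControlB against ControlA alone. Standard errors are approximate, the size of the log2 fold change over the square root of F. Ratios for genes under the filter carry exact 95% counting intervals. Depth was 39732710 to 69768666 gene counts per sample. Replicates of a group differed by more than counting noise, with a chi-square per degree of freedom of 3.08 to 45.5. Each was therefore counted as a library of its own. The highest values, 24.5 and 45.5, were of pairs with ControlA replicate 2, beside 7.52 for ControlA replicates 1 and 3. Without ControlA replicate 2, 8827 genes were called with nApoE4, against 8145 with all samples.

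The 10 genes, the lists of 95 pathway genes and of cell markers and the tests were chosen with earlier results of these data known. Named besides the 10 genes were, per role, up to 3 pathway genes with the largest change among those called and of at least 1 CPM in some group, the receptors, annotated neighbours, and the 5 genes most correlated with Ptgs2. None are named for Alox5, whose 1 to 11 counts per sample do not carry a correlation. Exon lengths came from GENCODE, promoter windows from RefSeq for 9 of the 10 genes, and Python 3.11.15 scripts read them. Genes of the pathway list were matched by symbol, 94 of 95.

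Alternatives were DESeq2 1.42.0, its size factors in edgeR, no filter beyond 1 count, a minimum of 10 counts per sample, a joint fit of the 11 samples (not for the difference), the replicate number as a block, and leaving out each replicate in turn.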

Additional observations from a re-analysis of the deposited data

Results flagged for a closer look

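The interaction test over the 11 samples put 5 of the 8 genes tested past an adjusted p under 0.05, against 28.3% of all genes, for a difference between the responses to the fragments, nApoE4 minus nApoE3, on the log2 scale in edgeR. The difference was -1.26 for Ptgs2, whose rise was smaller with nApoE4, and 0.69 for Pla2g4a, whose rise was larger with nApoE4. It was 0.65 for Ptges, 0.27 for Ptgs1 and -0.28 for Ptger4. These last 3 calls were lost without nApoE3 replicate 1 (edgeR adjusted p = 0.157, 0.112 and 0.148) and with the replicate block (0.0901, 0.0767 and 0.112). Each fragment was run in its own experiment with its own controls, so a difference between fragments and one between experiments cannot be told apart. Groups of 2 and 3 samples were not searched for samples that stand apart.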

How the results depend on the processing

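Of 408 results for single genes under the alternatives, 380 kept their direction and their side of the threshold, 20 were no longer past it, 1 came to pass it and 7 changed sign. All 7 were values of Ptges2 near 0. With nApoE4 its log2 fold change was 0.0064 with at least 10 counts in every sample, 0.00017 with the replicate block and -0.080 to 0.063 with replicates left out. With replicates left out it was -0.11 to 0.0091 with nApoE3, and -0.038 to 0.11 for the difference of the responses.

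For the difference of the responses, the replicate block left 1 of the 10 genes higher and 1 lower, 19 pathway genes and 2307 genes in all called, against 3, 2, 30 and 4331 without it. Under the block the adjusted p was 0.0901 for Ptges, 0.112 for Ptger4 and 0.0767 for Ptgs1. No filter on low counts left 1 gene lower, Ptger4 being the one lost. With each replicate left out, 1 to 3 genes were higher and 1 to 2 lower. Leaving out nApoE3 replicate 1 or ControlB replicate 1 left 1 higher, and leaving out nApoE4 replicate 2 or 3, ControlB replicate 2 or nApoE3 replicate 1 left 1 lower. The cause was not tested. Where only 1 nApoE3 sample remained, it was assumed to vary like the other groups. In the other comparisons the block changed no call for these genes.

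The labels give replicate numbers without saying whether they pair the samples. Same-numbered samples showed no positive correlation, but with groups of 2 or 3 samples such values cannot settle whether they were handled together. Deviations from the group means in same-numbered samples correlated at -0.0904, -0.338 and -0.162 in the nApoE4 experiment and at -0.002 and -0.0153 in the nApoE3 experiment. Depth limits Ptger2 and Alox5, which had at most 11 counts per sample.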

Other observations

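Of the other lipoxygenases and epoxide hydrolases, 3 genes could be tested with each fragment, of which 2 fell and none rose. Of all genes tested, 28.6% fell and 28.6% rose with nApoE4, and 34.6% fell and 33.1% rose with nApoE3. A count over 3 genes says little beside these shares. Alox8, the mouse 8-lipoxygenase, fell by 2.03 on the log2 scale with nApoE3, from 8.94 to 2.19 CPM (edgeR adjusted p = 2.84e-09), and had a value of 0.26 with nApoE4 (edgeR adjusted p = 0.452), where it was at 0.629 and 0.749 CPM. Its responses differed by 2.28 ± 0.271 (edgeR adjusted p = 4.45e-05), and it was 3.81 higher in ControlB than in ControlA on the log2 scale. Aloxe3 fell by 0.77 with nApoE4 and had a value of -0.29 with nApoE3 (edgeR adjusted p = 0.112). Ephx1, microsomal epoxide hydrolase, fell by 0.73 and by 0.31.

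Anxa1, annexin A1, which is known to restrain phospholipase A2 activity and eicosanoid release, rose by 0.50 with nApoE4, from 111 to 156 CPM, and by 0.68 with nApoE3, from 31.2 to 50.1 CPM. Cmklr1, a receptor for chemerin, rose by 0.45 with nApoE3 and had a value of -0.18 with nApoE4 (edgeR adjusted p = 0.271), with a difference of -0.64 ± 0.186 (edgeR adjusted p = 0.0214).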
